A study of Canis lupus familiaris with 23 samples.

Results

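SPP1 and SPARC encode osteopontin and osteonectin, a pair of noncollagenous proteins of bone matrix, and were followed across all 23 canine samples of the series by the 4 probe sets that the platform annotation assigned to them, of 23836 probe sets tested. They are 2 of the 6540 genes with a probe set of their own. A probe set is the group of short oligonucleotides that reports a transcript on an Affymetrix array. SPP1 had 1 probe set, 1586857_at, and SPARC had 3, 1583414_s_at, 1604151_at and 1592662_s_at. The genes were selected on their values in these samples: a high SPP1 level in kidney, a low SPP1 level in the cultured cell lines, and the difference from SPARC in both. Those comparisons are therefore given as levels, with no test.

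Osteopontin is an acidic secreted phosphoprotein made by osteoblasts, osteoclasts and macrophages. It binds hydroxyapatite, and through its integrin-binding motif it anchors osteoclasts to mineral. Outside bone it is made by kidney tubules and is present in urine, where it inhibits crystal growth. Osteonectin is a secreted calcium- and collagen-binding protein of osteoblasts and many stromal cells. It takes part in the assembly of collagen fibrils and is among the most abundant noncollagenous proteins of bone. Osteosarcoma, a bone-forming tumor, is known for both.

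The 15 tumors were primary osteosarcomas of pet dogs, removed at surgery before any chemotherapy. The 2 cell lines were canine osteosarcoma lines grown on plates. Normal kidney, liver and lymph node came from dogs of a research colony, with 2 samples of each. The labels name no allele, agent or age for any group. Normal bone was not among the samples, so every normal tissue here is a soft organ. Expression is given as log2 values, on which a difference of 1 is a doubling of the signal. Values of different probe sets were not set against each other, because probes differ in how brightly they bind.

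Arrays of the same group correlated with r from 0.882 to 0.978. The arrays fell apart in the signal from the 5′ end of transcripts. An index was formed from the array's controls, averaging the 3′ minus 5′ difference over actin and Gapdh, and 10 arrays had an index of 3.15 to 6.45, against -0.32 to 0.85 on the other 13. The low 5′ signal was found on 7 tumor arrays and on replicate 1 of each organ, and on no cell line array. Tumor 5 stood apart from the other tumors: 10 of 12 measured skeletal muscle markers were higher in it than in any other tumor. The mean level of that list was 9.0 in tumor 5 and 4.41 to 5.35 in the other 14, against 4.43 to 4.63 in the lines and the organs. Its adipocyte marker mean was also the highest, at 8.18, and its osteoclast marker mean was the lowest, at 5.81.

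SPP1 was high in every tumor and in both kidneys, intermediate in liver, and low in lymph node and in both cell lines. In the tumors the lowest log2 value was 9.91, the median 11.23 and the highest 12.15. The kidneys read 11.13 and 11.34, the livers 9.32 and 7.23, the lymph nodes 5.73 and 4.04, and the cell lines 5.02 and 3.63. Both kidney values lay inside the range of the tumors, 6 tumors were above both kidneys and 7 were below both. Lymph node and cell line values overlapped each other, and neither group reached the lower liver sample. The mean in kidney was 4.66 above the mean of liver and lymph node, the tumor mean minus the kidney mean was -0.10, and the cell line mean minus the tumor mean was -6.81. These 3 differences are a description of what chose the gene. In bulk tissue a lower level can come from fewer cells that make the transcript or from less of it per cell, and the arrays cannot tell these apart.

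SPARC had another order: highest in the tumors, next in the cell lines, and lower in the 3 organs. On 1583414_s_at, the brightest of its probe sets, the tumors had a lowest value of 11.71, a median of 12.83 and a highest of 13.23. The cell lines read 12.02 and 11.76, the kidneys 10.32 and 9.02, the livers 8.70 and 6.82, and the lymph nodes 9.90 and 7.85. The lowest tumor was tumor 5, the only one that did not exceed both cell lines, and all 15 tumors were above both kidneys. Both kidneys were above both livers, and the lymph node values overlapped those of kidney and of liver. The tumor mean was 3.11 above the kidney mean, the cell line mean minus the tumor mean was -0.90, and kidney was 1.35 above the mean of liver and lymph node, again without a test.

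**Figure D1:**
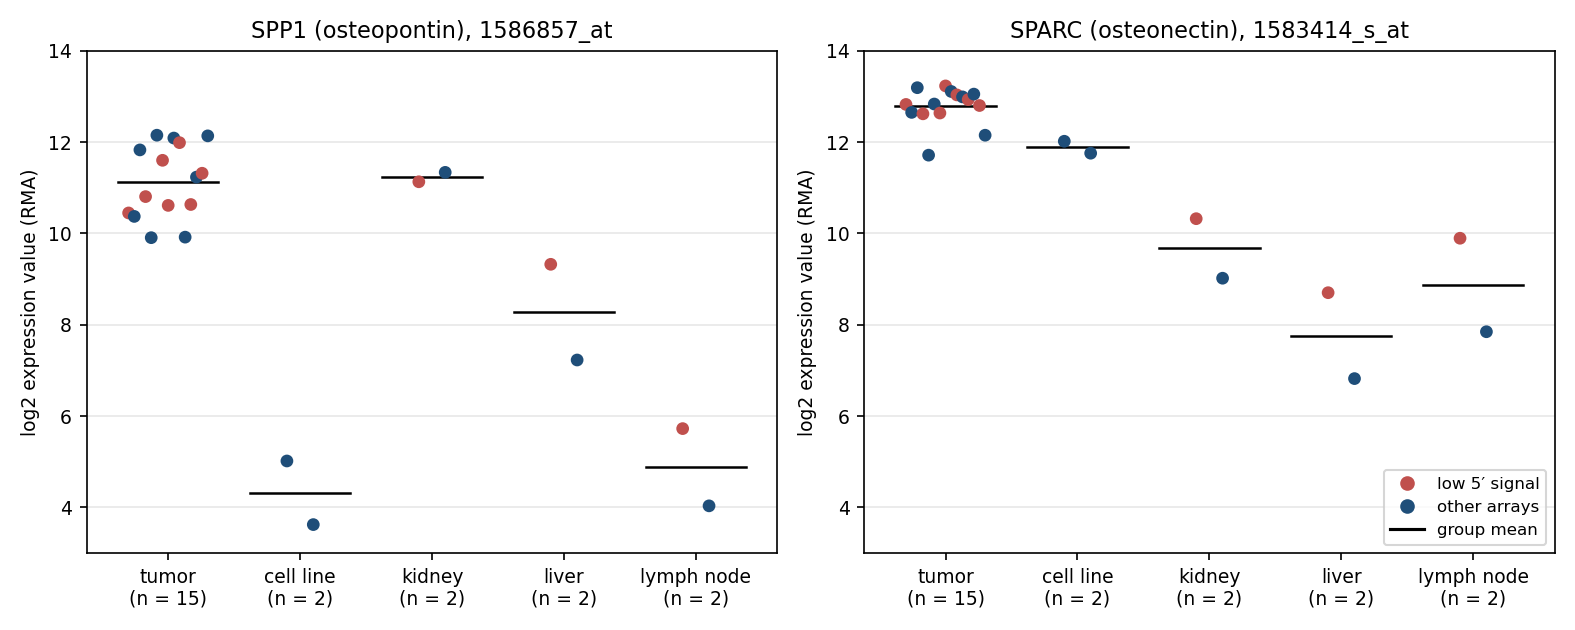
Log2 expression values of SPP1 (1586857_at, left) and SPARC (1583414_s_at, right) in each of the 23 samples by group, with red points for arrays with low 5′ signal, blue points for the others and a line at each group mean. SPP1 lay between 9.91 and 12.15 in the tumors, at 11.13 and 11.34 in kidney and at 5.02 and 3.63 in the cell lines, whereas SPARC in the cell lines was 12.02 and 11.76, beside the lowest tumor at 11.71.

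In the cultured lines SPP1 was 113-fold below the tumor mean as a description, and SPARC was 1.86-fold below it on the brightest probe set, 1.56-fold on 1604151_at and 1.59-fold on 1592662_s_at. In kidney the positions were exchanged: the SPP1 means of tumors and kidney were within 1.07-fold, and SPARC was lower in kidney than in the tumors, 8.65-fold on the brightest probe set, 52.9-fold on 1604151_at and 2.11-fold on 1592662_s_at, where only 6 of 15 tumors exceeded both kidneys. The SPP1 values of the lines and of lymph node lay near the dim end of the array, whose lowest value was 2.52. No detection calls were used to say whether the transcript was present there, so folds against these groups are those of the measured signal and not of the transcript.

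The other SPARC probe sets kept the tumors on top but did not place the organs in the same way. On 1604151_at the tumors had a lowest value of 10.31, a median of 12.15 and a highest of 13.23, and the lines read 11.68 and 10.81. The organs were far lower, at 5.26 and 7.06 in kidney, 5.68 and 6.31 in liver, and 5.80 and 7.01 in lymph node. Here kidney was not above the other organs, and kidney minus their mean was -0.04. On 1592662_s_at the tumors ran from 7.34 through a median of 7.84 to 10.08, the lines read 7.14 and 7.66, and the kidneys read 7.93 and 6.05, so that 1 kidney lay within the tumor range. Liver was at 6.46 and 5.56 and lymph node at 7.02 and 5.66 on that probe set.

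The SPARC level of the organs differed between replicates that also differed in 5′ signal, and the direction depended on the probe set. Replicate 1, the array with low 5′ signal, exceeded replicate 2 by 1.30 in kidney, 1.88 in liver and 2.05 in lymph node on 1583414_s_at, and by 1.88, 0.90 and 1.36 on 1592662_s_at. On 1604151_at the same differences were -1.80, -0.63 and -1.21. For SPP1 they were -0.21 in kidney, 2.09 in liver and 1.69 in lymph node. Among the tumors the 5′ classes differed less: SPP1 averaged 11.06 ± 0.58 (SD, n = 7) with low 5′ signal and 11.20 ± 0.997 (SD, n = 8) without. None of the 4 probe sets passed the test between these classes (adjusted p from 0.247 to 0.876), while 3.18% of all probe sets passed. The largest difference among the 4 was -0.85 ± 0.41 (SE) on 1604151_at. In every organ low 5′ signal coincided with replicate 1, so it cannot be told apart from other differences between the numbered samples. The part of the 5′ signal in the organ levels was not tested.

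**Figure D2:**
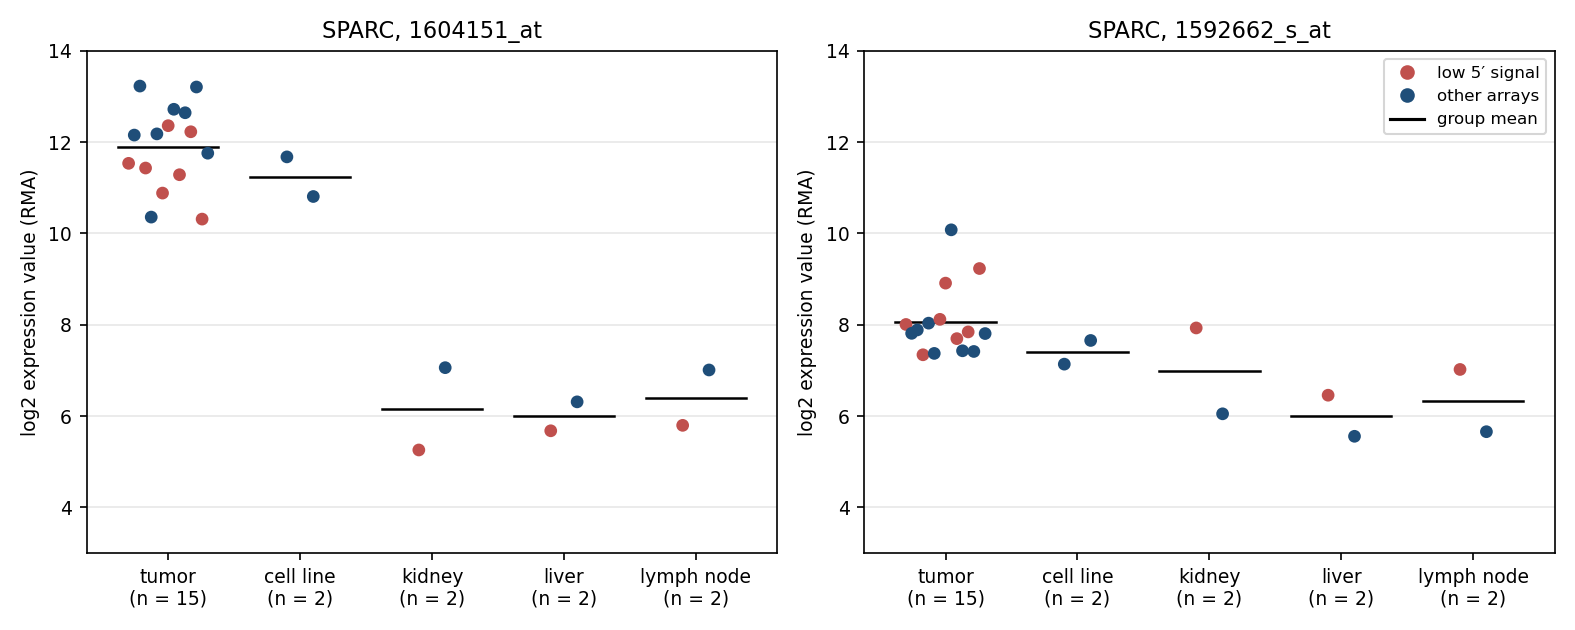
Log2 expression values of SPARC on its other probe sets, 1604151_at (left) and 1592662_s_at (right), in the 23 samples by group, drawn as for the brightest probe set. All tumors exceeded all organ samples on 1604151_at, and on 1592662_s_at kidney 1, at 7.93, lay within the tumor range of 7.34 to 10.08; the red organ points were below the blue ones on the left and above them on the right.

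The tumors were also set against liver and lymph node with limma, adjusted over all probe sets. These comparisons share their tumor, liver and lymph node values with those that chose the genes, so the p-values are not independent of that choice. Both genes were higher in the tumors than in either organ, and all 15 tumors exceeded both samples of each organ on all 4 probe sets. SPP1 was higher by 2.86 ± 0.63 (SE) than in liver, 7.26-fold, with an adjusted p of 0.00272. Against lymph node it was higher by 6.25 ± 0.63 (SE), 76.4-fold, with an adjusted p of 8.87e-07. SPARC on 1583414_s_at was higher than liver by 5.02 ± 0.45 (SE), 32.5-fold, with an adjusted p of 3.03e-08, and higher than lymph node by 3.91 ± 0.45 (SE), 15.1-fold, with an adjusted p of 5.50e-06. The probe set 1604151_at gave 5.89 ± 0.65 and 5.48 ± 0.65 (SE), with adjusted p of 7.81e-07 and 8.10e-06. Differences on 1592662_s_at were 2.06 ± 0.58 and 1.73 ± 0.58 (SE) and missed the threshold of 0.01, with adjusted p of 0.0175 and 0.0784. As background, 3.42% of the array was higher in the tumors than in liver and 5.86% lower, and against lymph node the shares were 1.33% and 2.91%.

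The excess of SPP1 over liver rested on liver 2. Without that sample the difference was 1.81 and its adjusted p 0.221, and it also missed the threshold among the arrays with low 5′ signal alone (1.73, adjusted p = 0.112) and among the others alone (3.98, adjusted p = 0.0269). The other tested differences of SPP1 and of SPARC on its brightest probe set passed in every one of the alternatives tried, with adjusted p up to 0.00282 for SPP1 against lymph node, 2.43e-05 for SPARC against liver and 0.00315 for SPARC against lymph node. Without tumor 5 the SPP1 differences were 2.95 and 6.34 and the SPARC differences 5.10 and 3.99.

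Osteopontin belongs to a family of acidic bone phosphoproteins whose genes lie side by side. In the reference annotation of the dog the neighbors of SPP1 include IBSP, DMP1, DSPP and MEPE, and 0 of these 4 relatives had a probe set with their symbol alone, so the rest of the family was not measured here. Osteopontin is read by integrins and by the hyaluronan receptor CD44, and 8 of 11 listed receptors were measured. ITGB5, the integrin β5 chain, was higher in the tumors by 2.22 ± 0.37 (SE) than in liver and by 3.09 ± 0.37 than in lymph node. The call against liver was lost without liver 2, at a difference of 1.85. On this probe set the tumors (9.23 to 11.17) and the lines (9.80 and 9.95) shared their range with kidney (10.21 and 9.80). The tumor minus kidney difference was 0.43 and the cell line minus tumor difference -0.56, against 1.60 and -2.38 on the other ITGB5 probe set. ITGA5, the α chain of the fibronectin receptor, was higher than in kidney by 3.72 ± 0.44. ITGB8 was lower than in kidney by a difference of -1.40 ± 0.26, a call that was lost without kidney 2 (adjusted p = 0.132), the sample that read 6.34 against 4.38 in kidney 1. CD44 itself did not pass in any contrast, and its tumor values ran from 4.30 to 8.06. None of the 8 receptors passed in the cell lines. The median difference of the receptors there was 0.00, against 0.10 over all genes.

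Among enzymes that cleave, cross-link or phosphorylate osteopontin, 7 of 11 were measured. MMP2, a gelatinase of stromal cells, was higher in the tumors than in all 3 organs, by 3.81 ± 0.58 (SE) over kidney, 4.09 ± 0.58 over liver and 3.28 ± 0.58 over lymph node. FAM20C, the kinase that phosphorylates secreted proteins of this family, was higher than in lymph node by 3.78 ± 0.32. MMP9, the gelatinase of osteoclasts and neutrophils, was higher than in liver by 5.67 ± 1.34 and lower in the lines than in the tumors by a difference of -6.23 ± 1.34. Both MMP9 calls came from its brightest probe set, and the remaining pair of MMP9 probe sets gave differences from -0.10 to 0.01 for the same contrasts. Without either liver or either line they missed the threshold, as did the MMP2 call against lymph node without either lymph node. All 7 enzymes had a negative difference in the lines, with a median of -1.74 against 0.10 over all genes.

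Fibrillar and basement membrane collagens are the ligands of osteonectin, and they were higher in the tumors along with SPARC. Of 7 collagens that SPARC binds, 7 were higher than in liver, 7 higher than in lymph node and 5 higher than in kidney. Across the array 3.42% of probe sets were higher than in liver, 1.33% than in lymph node and 2% than in kidney. The shares that were lower were 5.86%, 2.91% and 5.26%. COL1A1, the α1 chain of type I collagen and the main protein of bone, ranged from 9.58 to 13.94 in the tumors, against 6.18 and 5.02 in kidney, and was higher by 7.56 ± 0.74 (SE). COL5A2, a chain of type V collagen, was higher than in kidney by 6.92 ± 0.52. The chains of basement membrane collagen, COL4A1 and COL4A2, were higher than in liver by 3.38 ± 0.51 and 2.89 ± 0.49 but did not pass against kidney. Without lymph node 2, COL3A1, COL4A1 and COL4A2 missed the threshold against lymph node (adjusted p of 0.0146, 0.0163 and 0.0512), and COL3A1 without liver 1 and COL4A2 without liver 2 missed it against liver (0.0133 and 0.0226).

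In the lines 6 of the 7 collagens had a negative difference from the tumors, with a median of -0.71 against 0.10 over all genes. COL1A1 read 13.18 and 12.39 there and COL5A2 12.84 and 11.54, within or above the tumor range. COL1A2 read 12.93 and 11.03, line 2 below the lowest tumor at 12.01, with a difference of -1.50 ± 0.43 (SE, adjusted p = 0.0245) and differences of -4.19 to -0.11 on its other probe sets. COL4A2 read 9.69 and 8.31, line 2 again below all tumors. Of the 7 collagens only COL4A1 passed, with a cell line minus tumor difference of -2.35 ± 0.51 (SE), and it missed the threshold without either line (adjusted p of 0.0182 and 0.138). Across the array 3.77% of probe sets were higher in the lines than in the tumors and 2.5% lower. Of the SPARC family, proteins that share its calcium-binding region, 4 of 7 were measured and none passed against an organ. SPARCL1, also called hevin, was the one that passed in the lines: it read 3.55 and 3.54 there against 6.01 to 11.55 in the tumors, a difference of -4.59 ± 0.95 (SE, adjusted p = 0.00323), which missed the threshold without either line (0.0487 and 0.0498).

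Of 9 measured partners of SPARC outside the collagens, SERPINH1, the collagen chaperone of the endoplasmic reticulum, was higher than in all 3 organs, by 2.72 ± 0.52 (SE) over kidney, 3.49 ± 0.52 over liver and 2.98 ± 0.52 over lymph node. Its calls against kidney and lymph node each missed the threshold without either sample of that organ. CTSK, the osteoclast protease that cleaves SPARC and collagen, was higher than in kidney by 4.44 ± 0.62 and than in liver by 3.50 ± 0.62. The call against liver was lost without either liver, at differences of 3.48 and 3.53. VTN, the liver-made plasma protein vitronectin, was lower than in liver by a difference of -7.06 ± 0.20. None of the 9 passed in the lines. Among 8 measured matricellular proteins, the class that SPP1 and SPARC define, FBLN1 fell in the lines with a difference of -3.74 ± 0.72. CCN2 was higher in the tumors than in liver by 4.87 ± 0.72 and than in lymph node by 5.77 ± 0.72. FBLN1 was also higher in the tumors than in kidney by 3.65 ± 0.72 and than in lymph node by 4.39 ± 0.72. Its call in the lines was lost without either line, that against kidney without kidney 2 and that against lymph node without either lymph node. Of 6 other noncollagenous bone matrix proteins, DCN, the collagen-binding proteoglycan decorin, was higher than in all 3 organs, by 3.08 ± 0.57 to 4.52 ± 0.57, and its call against kidney was lost without kidney 2 (adjusted p = 0.0400). ASPN, the related proteoglycan asporin, read 3.27 and 3.15 in the lines against 4.35 to 13.31 in the tumors, a difference of -7.01 ± 1.62 (adjusted p = 0.00659) that missed the threshold without either line (0.0739 and 0.0798). Against liver FBN1, the microfibril protein fibrillin, was higher by 3.80 ± 0.94, a call lost without either liver, and AHSG, a plasma protein made in liver, was lower by a difference of -3.85 ± 0.35. Of the osteoblast genes BMP2, a bone morphogenetic protein, was higher than in kidney by 2.78 ± 0.66 and than in liver by 2.62 ± 0.66, calls lost without either sample of the organ, and the latter also without some single samples of every other group.

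The lines also differed from the tumors in the markers of cells that make osteopontin in tissue. Of 18 measured macrophage markers 10 were lower in the lines and 0 were higher, with a median difference of -2.95. Across the array 2.5% of probe sets were lower in the lines and 3.77% higher, and the median difference over all genes was 0.10. The mean level of the list was 4.55 and 4.59 in the lines, 6.62 to 9.02 in the tumors, 5.69 and 5.95 in kidney, 7.78 and 8.40 in liver, and 8.05 and 8.68 in lymph node. CSF1R, the receptor that macrophages and osteoclasts need, read 3.91 and 4.80 in the lines against 7.65 to 11.60 in the tumors, a difference of -4.71 ± 0.80 (SE). With 1 line left out most of these calls were lost: 8 of the 10 without line 1, CSF1R among them, and 8 without line 2. CTSS, the lysosomal protease cathepsin S, passed with either line left out (-5.78 ± 0.53, SE). Of 8 osteoclast markers only MMP9 passed, and all 8 had a negative difference, with a median of -1.13. Their mean level was 5.27 and 6.17 in the lines, 5.81 to 8.88 in the tumors, 6.47 and 6.72 in kidney, 5.42 and 5.81 in liver, and 5.56 and 5.83 in lymph node. Lymph node and liver had macrophage marker means within the tumor range and SPP1 values below every tumor. The part of macrophages in the SPP1 level of the organs was not tested. All 5 osteoblast markers had a negative difference in the lines, with a median of -0.84, and 0 passed. Some markers of cells not named as sources of osteopontin were lower in the lines as well. In each of the endothelial, smooth muscle and fibroblast lists 1 marker had a positive difference. Passing as lower were 3 of 6 endothelial markers, PECAM1 (-5.43 ± 0.78, SE), TIE1 and CD34. So were 1 of 6 pericyte and smooth muscle markers, the actin ACTA2 (-5.95 ± 0.86), and 1 of 5 fibroblast markers, DPT (-5.04 ± 0.88). Of these 5 PECAM1 passed with either line left out, ACTA2 and DPT were lost without line 2 (adjusted p of 0.0116 and 0.0697), and TIE1 and CD34 without either. The part of any of these cells in the SPP1 level of the lines was not tested.

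Within the tumors SPP1 and SPARC did not follow each other detectably. SPP1 spread over 2.24 log2 units and SPARC over 1.52 on its brightest probe set. Pearson's r was 0.23 (permutation p = 0.416) and Spearman's rank correlation 0.17 (permutation p = 0.548) over the 15 tumors. The other SPARC probe sets gave r of 0.14 and 0.19 (permutation p of 0.611 and 0.513), and adjusted over these 3 relations every p of r was 0.611. Without tumors 5 and 11, the farthest from the SPP1 median, r was -0.07. It was -0.12 among the 7 tumors with low 5′ signal and 0.34 among the other 8, and leaving out tumor 5 alone turned it to -0.12. The SPARC probe sets were themselves only partly alike across the tumors, with r of 0.64 between 1583414_s_at and 1604151_at, 0.20 between 1583414_s_at and 1592662_s_at, and -0.11 between 1604151_at and 1592662_s_at. Which tumor was high in SPARC therefore depended on the probe set, and this limits what can be said of genes that follow it.

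**Figure D3:**
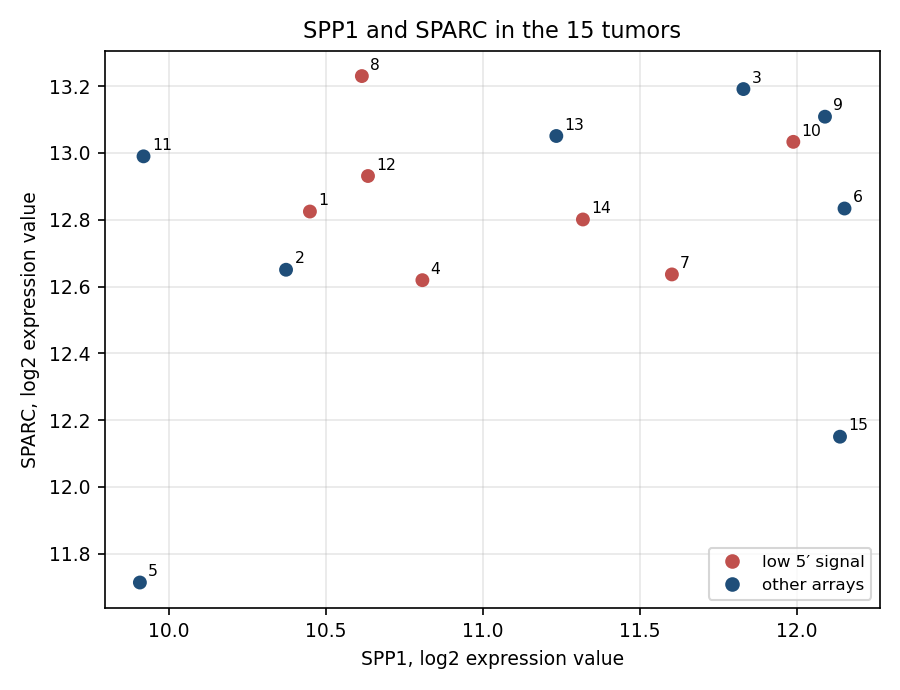
SPARC (1583414_s_at, vertical axis) against SPP1 (1586857_at, horizontal axis) as log2 expression values in the 15 tumors, numbered, with red for low 5′ signal and blue for the other arrays. Tumor 5 was lowest in both, at 9.91 and 11.71, and tumor 15 paired 1 of the highest SPP1 values, 12.14, with the second-lowest SPARC value, 12.15; r over all tumors was 0.23.

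No probe set followed SPP1 across the tumors at an adjusted p below 0.01, where 0% of 23835 probe sets passed. At an unadjusted p below 0.05 limma gave 1322 probe sets, 5.55% of those tested, and the smallest adjusted p was 0.114. Without tumor 5 there were 944, and the smallest adjusted p was 0.380. The genes named next are the extremes of a ranking of 2206 genes by r over these 15 tumors, so the size of their r is what chose them. PTPN13, a protein tyrosine phosphatase, had the highest r with SPP1, 0.84, and ranged from 5.58 to 9.66 in the tumors. MMP13, the collagenase of osteoblasts and cartilage, followed at 0.76 and ranged from 3.68 to 13.35. Then came CD68, a lysosomal glycoprotein of macrophages and osteoclasts (0.76), CLDN10, a tight junction protein of kidney tubules (0.75), RAP2C, a small GTPase (0.73), and ATP6V0D2, the proton pump subunit of osteoclasts (0.72). CA2, the carbonic anhydrase that supplies the acid of osteoclasts, had r of 0.70, MMP9 0.69, ARHGAP18 0.68, and PLEKHM1, a lysosomal adaptor needed for bone resorption, 0.67. The 3 other CLDN10 probe sets had r of -0.43 to 0.17 with SPP1, the 2 other MMP9 probe sets 0.23 and 0.34, and the 2 other PTPN13 probe sets 0.54 and 0.88.

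Of these 10 genes 3, MMP9, ATP6V0D2 and CA2, were on the osteoclast list, and the list as a whole lay to the same side. All 8 osteoclast markers measured had a positive r with SPP1, from 0.31 for ITGB3 to 0.72 for ATP6V0D2, with a median of 0.64. Among them CLCN7 was dim in the tumors (mean 4.37, SD 0.45) and TNFRSF11A varied little (mean 5.18, SD 0.29). Both fell short of the mean of 5 or the SD of 0.5 required of ranked genes. Over all 6538 genes 3333 had a positive r, the median was 0.01, and 235 exceeded 0.5. Without tumor 5 all 8 were still positive, with a median of 0.57, and within the 5′ classes the medians were 0.67 over 7 tumors and 0.79 over 8. All 8 also had a positive r with SPARC, with a median of 0.32 against 0.08 over all genes. Without tumor 5 that median was 0.03, and 6 of 8 were positive. The highest osteoclast marker means were those of tumors 6, 7, 9 and 10, at 8.55 to 8.88, with SPP1 at 11.60 to 12.15, while tumor 15 had SPP1 at 12.14 with a mean of 7.88. The 8 markers share tumors and arrays, and none of them passed the test on its own.

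The macrophage list did not lie to one side over all tumors. Of its 18 markers 7 had a positive r with SPP1, with a median of -0.14, and CD68 at 0.76 was the only one above 0.5. The sign depended on the 5′ class: among the 7 tumors with low 5′ signal all 18 were positive, with a median of 0.82, and among the other 8 only 6 were positive, with a median of -0.46. For comparison the median over all genes was -0.07 and 0.09 in these classes. Of the 7 measured genes on the osteoblast gene list 6 had a positive r with SPP1, with a median of 0.26, led by PTH1R, the parathyroid hormone receptor, at 0.63.

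At the other end of the ranking stood NOVA1, an RNA-binding splicing factor (r of -0.86), TPPP3, a tubulin-binding protein (-0.80), RCL1, which acts in ribosomal RNA processing (-0.78), AKAP12, a scaffold for protein kinase A (-0.77), and SLC22A3, an organic cation transporter (-0.73). NOVA1 was low throughout, from 3.96 to 7.15. All 15 named genes kept the sign of r in both 5′ classes. Without tumors 5 and 11 the size of r was 0.50 to 0.80 for the 10 positive genes and 0.53 to 0.82 for the 5 negative ones. Of the 10 positive genes all had a negative difference between lines and tumors, and CD68 (-4.12 ± 0.96, SE) and MMP9 passed. Over all genes the median difference was 0.10, and 2.5% of all probe sets were lower in the lines. MMP9 passed on its brightest probe set, and its other probe sets gave differences of -0.10 and 0.01. CD68 read 5.24 and 5.02 in the lines, against 6.37 to 11.63 in the tumors, and missed the threshold without either line.

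**Figure D4:**
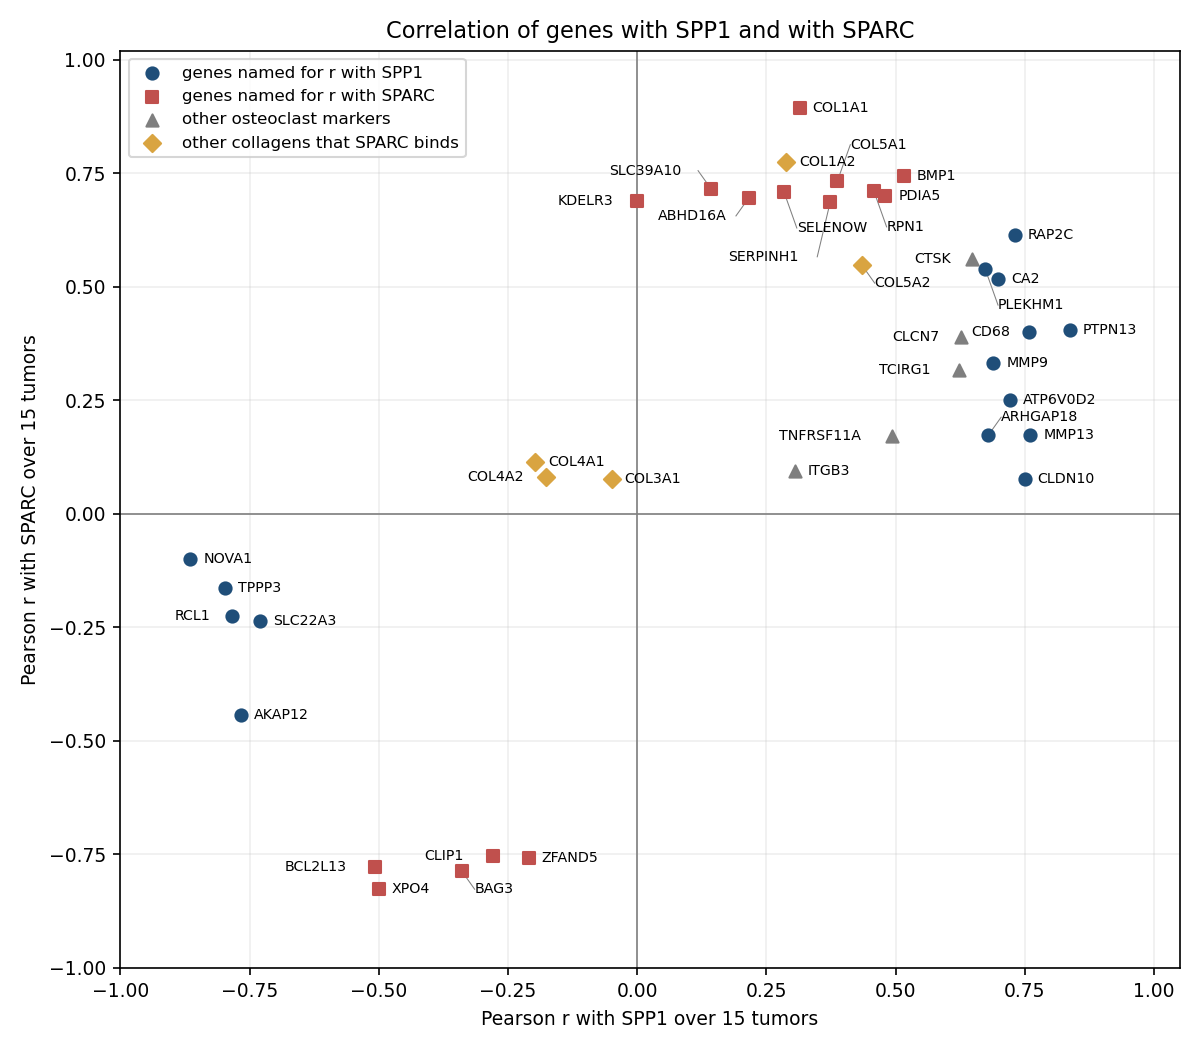
Pearson r with SPP1 (horizontal axis) and with SPARC (1583414_s_at, vertical axis) over the 15 tumors for the genes named for each, with the remaining osteoclast markers and the remaining collagens that SPARC binds. The 10 genes highest for SPP1 had r of 0.67 to 0.84 with SPP1 and 0.08 to 0.61 with SPARC. The 5 lowest for SPP1 had -0.86 to -0.73 with SPP1 and -0.44 to -0.10 with SPARC. The 10 highest for SPARC had r of 0.69 to 0.89 with SPARC and at most 0.52 with SPP1. The 5 lowest for SPARC had -0.83 to -0.75 with SPARC and -0.51 to -0.21 with SPP1. The axes were used for the ranking, so the spread along each gene's own axis is no result.

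For SPARC, too, 0% of 23833 probe sets passed at an adjusted p below 0.01. At an unadjusted p below 0.05 there were 3155, 13.2% of those tested. One probe set, of COL1A1, was below an adjusted p of 0.05, at 0.0434. Without tumor 5 there were 3125 at an unadjusted p below 0.05, and the smallest adjusted p was 0.282. COL1A1 had r of 0.89 with SPARC, and its other probe set had 0.78. After it in the ranking stood BMP1, the protease that trims procollagen (0.74), COL5A1, a type V collagen chain (0.73), and SLC39A10, a zinc transporter (0.72). RPN1, a subunit of the enzyme that glycosylates proteins in the endoplasmic reticulum, had 0.71, SELENOW, a selenoprotein, 0.71, PDIA5, a disulfide isomerase, 0.70, and ABHD16A, a lipase, 0.70. KDELR3, the receptor that returns escaped proteins to the endoplasmic reticulum, and SERPINH1 closed the 10, both at 0.69. The lowest r belonged to XPO4, a nuclear export receptor (-0.83), BAG3, a chaperone partner abundant in muscle (-0.79), BCL2L13, a mitochondrial protein (-0.78), ZFAND5, a proteasome-binding zinc finger protein (-0.76), and CLIP1, a microtubule tip protein (-0.75).

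The ranking for SPARC leaned on tumor 5. It had the lowest value of all tumors for 10 of the 10 positive genes and the highest for 5 of the 5 negative ones, for example 9.58 for COL1A1 against 12.32 to 13.94 in the other 14, and 10.18 for BAG3 against 6.23 to 8.22. Without it r was 0.80 for COL1A1 and 0.25 to 0.61 for the other 9. For the SPP1 ranking, tumor 5 was the lowest of all for 6 of 10 positive genes, and r without it was 0.61 to 0.81. Without tumors 5 and 15, the farthest from the SPARC median, the 10 values for SPARC ran from 0.14 to 0.62. The followers of SPARC were also less alike between its probe sets: their r was 0.24 to 0.82 with 1604151_at and -0.09 to 0.47 with 1592662_s_at. Within the 7 tumors of low 5′ signal RPN1 and ABHD16A had a negative r with SPARC and ZFAND5 and CLIP1 a positive one, against their sign over all tumors, and the other probe sets of BCL2L13 had r of 0.07 to 0.11.

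All 7 collagens that SPARC binds had a positive r with it, from 0.08 for COL3A1 to 0.89 for COL1A1, with a median of 0.55, against 3787 positive of 6538 genes and a median of 0.08 overall. COL1A2, the other chain of type I collagen, had 0.77 and COL5A2 0.55. Without tumor 5 the median was 0.30 and 6 of 7 were positive, with -0.15 for COL3A1 and 0.37 for COL1A2. Skeletal muscle markers went the other way: 11 of 12 had a negative r with SPARC and the median was -0.67. Without tumor 5, 10 of 12 were positive, with a median of 0.23. MYH7, the slow myosin heavy chain, read 12.16 in tumor 5 and 5.79 to 7.49 in the other tumors. The part of muscle tissue in the low SPARC value of tumor 5 was not tested.

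**Figure D5:**
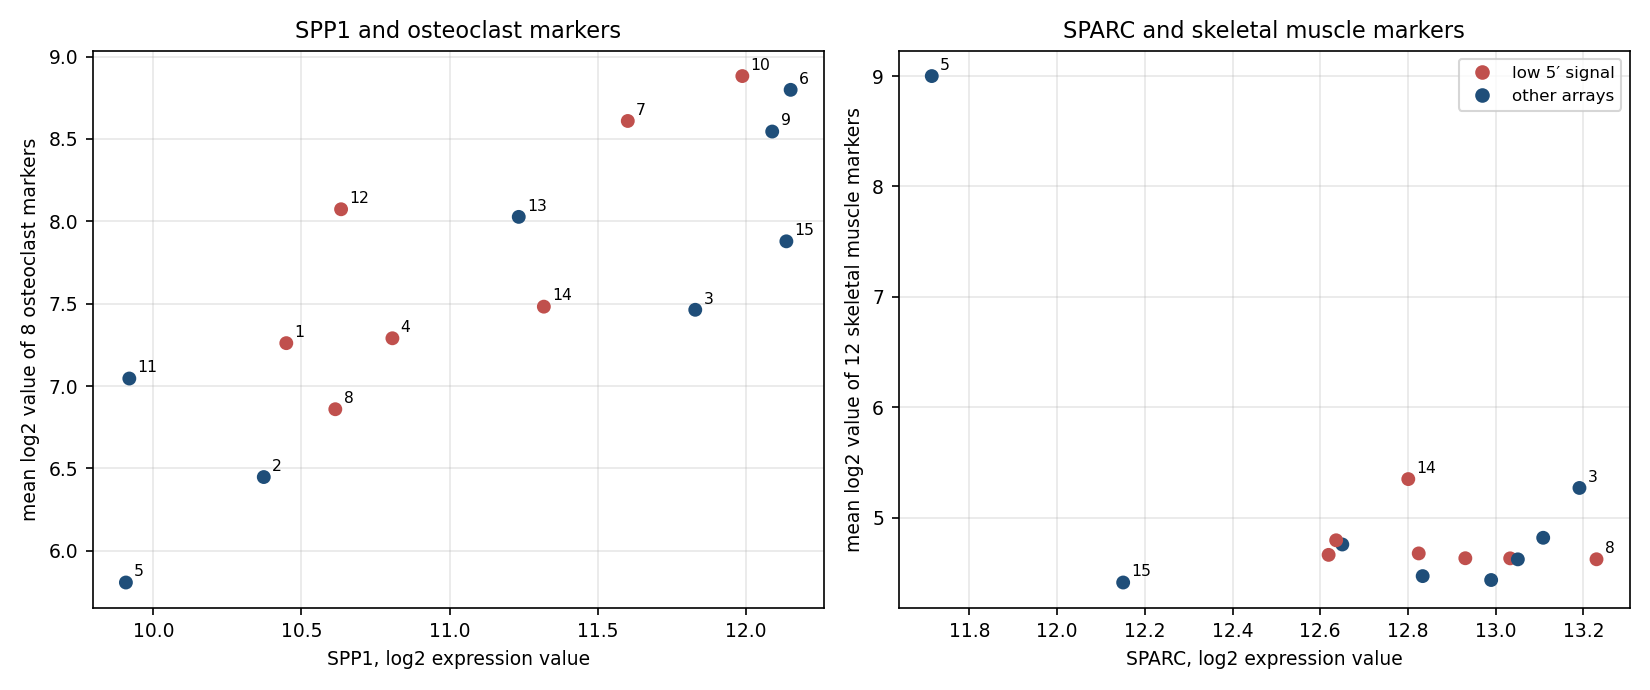
Mean log2 value of 8 osteoclast markers against SPP1 (left) and of 12 skeletal muscle markers against SPARC (1583414_s_at, right) in the 15 tumors, with red for low 5′ signal and blue for the other arrays; all tumors are numbered on the left, and tumors 3, 5, 8, 14 and 15 on the right. The osteoclast mean ran from 5.81 in tumor 5 to 8.88 in tumor 10, with tumor 15 at 7.88 beside an SPP1 value of 12.14 and tumor 12 at 8.07 beside 10.63, and on the right tumor 5, at a muscle mean of 9.0 and a SPARC value of 11.71, lay alone, away from the other 14 tumors.

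Over all 23 samples the genes most like SPP1 had both kidney values and the tumor median above every line, liver and lymph node value, by margins that differed. GPR137B, a lysosomal membrane protein, had r of 0.79, FARP1 0.78, AQP1, the water channel of kidney tubules and vessels, 0.78, ATP6V0D2 0.76, and PTH1R 0.75. ATP6V0D2 read 7.09 and 7.65 in kidney, 3.69 to 10.22 in the tumors, and 3.19 to 3.62 in the lines, liver and lymph node. PTH1R read 8.76 and 10.71 in kidney and 4.65 and 4.59 in the lines. AQP1 shared the pattern between groups but not within the tumors, where its r with SPP1 was -0.24, and FARP1 had 0.29 there. The genes most like SPARC were COL1A1 (0.95), TIMP1, an inhibitor of metalloproteases (0.94), GPX8, a peroxidase of the endoplasmic reticulum (0.93), COL5A1 (0.93) and OLFML2B, a secreted olfactomedin-like protein (0.92). TIMP1 ran from 11.23 to 13.14 in the tumors and read 10.56 and 9.94 in the lines, and 6.61 to 8.61 in the organs. These r values are dominated by the differences between groups and are given as a description.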

How the data were processed

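Gene expression of 15 tumors, 2 cell lines and 6 normal organ samples was measured on Affymetrix Canine Genome 1.0 arrays after one-cycle labeling, hybridized at 1 core facility as a group. The authors deposited log2 expression values made by robust multichip average (RMA; the affy package is named in the submitters' processing notes; versions not given in the sources used here), which corrects background, equalizes the distribution of the arrays and combines the probes of a set, so a change in total RNA per cell is not visible. Arrays carry no read depth, and precision is limited by how many there are. Samples were grouped by their labels and numbered in accession order, the organs by their own labels. Control probe sets (77 of 23913) were set aside. Of the probe sets, 10549 carried 1 symbol in the annotation, 138 carried several and 13149 were unnamed. Gene IDs of 10046 of the first were found in RefSeq's UU_Cfam_GSD_1.0 table, which changed 0 symbols. For each of 6540 genes the brightest probe set on average stood for the gene.

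Groups were compared in R 4.3.3 with limma 3.58.1 (lmFit and eBayes, two-sided, Benjamini-Hochberg over all 23836 probe sets, adjusted p below 0.01) in a model of 5 groups and 23 samples with 1 shared spread, after tests on simulated data. Genes following SPP1 or SPARC were sought with limma slopes over the 15 tumors, and the relation of both genes with a permutation test (100000 resamples, two-sided, scipy 1.17.1). The study describes the organ samples as biological replicates but the labels name no dog, and the lines are separate lines, so p-values measure the spread between these samples only. Tumor RNA and cell line RNA were extracted by different methods. Named were all probe sets of both genes, the 10 genes highest and 5 lowest in r over the tumors (tumor mean of at least 5, SD of at least 0.5), the 5 highest over 23 samples, and list members that passed, up to 4 per list and contrast or where needed. The genes and the 9 pathway and 13 marker lists were chosen with earlier results of these data known. Deviations of same-numbered organ samples correlated with r of 0.607, 0.596 and 0.530, which met the criterion for pairs. The reported tests have no block, and the block is an alternative. The 5′ signal splits the numbers in the same way. Alternatives left out each sample, used the 5′ index as a covariate or as a split, another threshold, filter, centring or probe set summary, or a replicate block.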

Additional observations from a re-analysis of the deposited data

How the results depend on the processing

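Each organ and the cell lines had 2 samples. SPP1 in tumors minus liver passed as reported (2.86) and missed the threshold within the arrays with low 5′ signal (1.73) and within the others (3.98); leaving out 1 sample at a time gave 1.81 to 3.91, and the call was lost without liver 2. With the same-numbered organ samples as a replicate block the adjusted p of the 4 tested differences were 0.00277 and 9.39e-07 for SPP1 and 2.26e-09 and 7.12e-07 for SPARC, and the pairing changed no call of these. Kidney minus the mean of liver and lymph node moved for SPP1 to 3.61 and 5.70 within the low and the other 5′ arrays, and for SPARC to 0.71 with the mean of its 3 probe sets and to 0.70 to 2.01 with 1 sample left out; SPARC in tumors minus kidney then ran from 2.46 to 3.76. The r of SPP1 with SPARC ran from -0.12 to 0.45 (permutation p over its alternatives from 0.0926 to 0.691). At an adjusted p below 0.05 there was 1 probe set following SPARC, as against 0. Counts of probe sets past the threshold fell when an organ or a line was left with 1 sample: they ran from 1060 to 1806 for kidney (1730 as reported), 1233 to 2287 for liver (2212), 375 to 1059 for lymph node (1011) and 471 to 1539 for the cell lines (1495). SPP1 in tumors minus kidney (-0.10 as reported) changed sign with the 5′ index as a covariate (0.03) and ran from -0.20 to 0.005 with 1 sample left out. The other settings tried for SPP1 and SPARC between groups kept direction and call. The settings for list genes and for counts over all probe sets, the list correlations without tumor 5 and by 5′ class, and the endothelial, smooth muscle and fibroblast markers without each line were chosen after seeing the data.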
